A study of Mus musculus with 29 samples.

Results

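The genes described are 10 transcripts of microglia and phagocytes among the 36831 genes that both sets of count tables list. They were chosen by name. Csf1r, C1qa, C1qb, C1qc, Cx3cr1, Aif1 and P2ry12 are 7 genes of resting microglia and are called homeostatic here. Spp1, Gpnmb and Lgals3 are 3 genes of phagocytic cells. The choice used measured values, since Spp1 and Gpnmb were picked for their rise in the dcKO, so the differences between dcKO and control are given as a description with no test for these genes.

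The tissue was mouse cortex (pallium) of strain C57BL/6J at E17.5. The dcKO lacks BAF155 and BAF170, scaffold subunits of the BAF chromatin remodelling complex encoded by Smarcc1 and Smarcc2, after recombination of floxed alleles by hGFAP-Cre. This Cre acts in late cortical progenitors. Microglia come from another lineage, and no value here shows whether any of them lost the alleles. The study's methods name embryos heterozygous for both floxed alleles, with Cre, as controls, whereas the labels call the genotype of the vehicle controls wild type. In the treatment experiment vehicle was given to a wild type group (WT vehicle, 4 libraries) and to a dcKO group (dcKO vehicle, 4 libraries), and 4 further dcKO libraries came after the Wnt inhibitor ICG-001 (dcKO Wnt inhibitor). The mothers received the agents. A further 7 untreated libraries are labelled BAF dcKO_hGFAP-Cre throughout and differ in the letter of their title, C in 4 and M in 3, and are named here by that letter. H3K27me3, a mark of Polycomb repression, was profiled in 8 libraries titled C or K, 4 of each, which also share 1 genotype label. No label tells littermates apart, so p-values measure the spread between these samples, which may in part be technical.

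Microglia are the resident macrophages of the brain. They descend from yolk sac progenitors, enter the cortex before most of its neurons are born, and depend on the receptor tyrosine kinase encoded by Csf1r. In the resting state they carry the fractalkine receptor Cx3cr1 and the purinergic receptor P2ry12, and they make the 3 chains of complement C1q. When they take up debris, dying cells or myelin they lower part of this program and raise Spp1 (osteopontin, a secreted integrin and CD44 ligand), Gpnmb (a lysosomal membrane glycoprotein) and Lgals3 (galectin-3, a lectin that binds damaged lysosomes).

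Before the genes themselves, facts about the libraries that bear on the comparisons are given. The counts per library ran from 11946658 to 28391046. Smarcc1 was at 245 to 299 CPM (counts scaled to the library size) in the 8 control libraries and at 128 to 138 CPM in 5 of the 7 libraries titled M or labelled dcKO vehicle. The library labelled untreated M 2 (245 CPM), the library labelled dcKO vehicle 2 (242 CPM) and the library labelled dcKO Wnt inhibitor 2 (252 CPM) were at or near the control level, and Smarcc2 was likewise at 670, 692 and 695 CPM there against 398 to 439 CPM in the same 5 libraries. The members' differences are therefore given with and without these 3 libraries, and so are the counts of called list genes and the sums of marker lists where leaving them out changes a call or an overlap. Of the other inhibitor libraries, the third had 140 CPM of Smarcc1, the fourth 173 CPM and the first 214 CPM. The library dcKO vehicle 1 carried both Xist (673 CPM) and the Y-linked Ddx3y (19.03 CPM). It stays in the fits without the replicate 2 libraries, so those fits are not free of unusual libraries. Whether it holds material of more than 1 embryo was not tested.

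The untreated and the vehicle libraries may also not be independent of each other. In both control groups replicates 2 and 3 carried Xist (1898 to 2665 CPM) and replicates 1 and 4 did not (0.511 to 10.7 CPM), and the choroid plexus gene Ttr was at 120 CPM in C 4 and 114 CPM in WT vehicle 4 against 3.14 to 12.9 CPM in the other 6. Over 11335 genes, the deviations of M 2, M 3 and M 4 from their group mean correlated with those of the same-numbered dcKO vehicle libraries at 0.771 to 0.879, as a description across genes that share these libraries. The variance of the ratio between same-numbered M and dcKO vehicle libraries was 1.60 times that of counting alone, and it was 13.7 and 14.1 times when the numbers were shifted. For C and WT vehicle the same numbers gave 9.80 times and shifted numbers 9.34 to 14.5 times. The deviations of C and WT vehicle libraries correlated at -0.015 to 0.50 for the same number and at -0.49 to 0.47 for other numbers. Xist was at 2271, 4.09 and 2335 CPM in M 2 to 4. In dcKO vehicle 2 to 4 it was at 1797, 3.57 and 1982 CPM. A common source of the untreated and vehicle RNA was not tested and no label states one, so the 2 comparisons of dcKO with control are shown side by side and neither is taken as a repeat of the other.

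Spp1 was the member with the highest mean level per length in dcKO vehicle, at 10.5 CPM per kb of exons against 8.17 for C1qb, the next. In WT vehicle C1qb was highest at 6.85 CPM per kb and Spp1 was at 2.07. Its level was 3.12, 1.69, 3.39 and 5.42 CPM in WT vehicle 1 to 4 and 23.2, 7.21, 23.8 and 15.2 CPM in dcKO vehicle 1 to 4. It was 5.21, 2.3, 2.81 and 4.88 CPM in C 1 to 4 and 7.14, 28.2 and 16.1 CPM in M 2 to 4. The groups did not overlap in either set, and the lowest value among M and dcKO vehicle was in each case that of the replicate 2 library with control-level Smarcc1. The log2 fold change was 2.33 (SE 0.42) for dcKO vehicle against WT vehicle, a 5.04-fold higher level, and 2.20 (SE 0.48) for M against C. It was 2.59 (SE 0.30) and 2.55 (SE 0.33) when the replicate 2 libraries were left out.

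Gpnmb had the largest fold change of the 10 genes and the lowest control level. It was at 0.256, 0.205, 0.331 and 0.659 CPM in WT vehicle 1 to 4, which are 4 to 17 reads a library, and at 6.40, 1.20, 7.97 and 2.38 CPM in dcKO vehicle 1 to 4. In C it was at 0.504, 0.177, 0.178 and 0.813 CPM, and in M at 1.26, 7.27 and 2.34 CPM. The dcKO vehicle libraries spread widely among themselves, and still none came down to the highest control. The log2 fold change was 3.55 (SE 0.62) for dcKO vehicle against WT vehicle and 3.20 (SE 0.70) for M against C, and 3.85 (SE 0.46) and 3.55 (SE 0.57) without the replicate 2 libraries.

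Lgals3 was at 1.02, 1.02, 0.744 and 1.05 CPM in WT vehicle 1 to 4 and at 3.25, 1.60, 3.88 and 2.33 CPM in dcKO vehicle 1 to 4. It was at 0.966, 0.886, 0.605 and 0.723 CPM in C and at 1.18, 3.48 and 1.90 CPM in M. The order of the dcKO libraries was the same as for Spp1 and Gpnmb, with replicate 3 highest and replicate 2 lowest, and the groups again did not overlap. The log2 fold change was 1.5 (SE 0.36) and 1.52 (SE 0.35) in the treated and the untreated libraries, and 1.69 (SE 0.23) and 1.76 (SE 0.30) without the replicate 2 libraries.

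**Figure D1:**
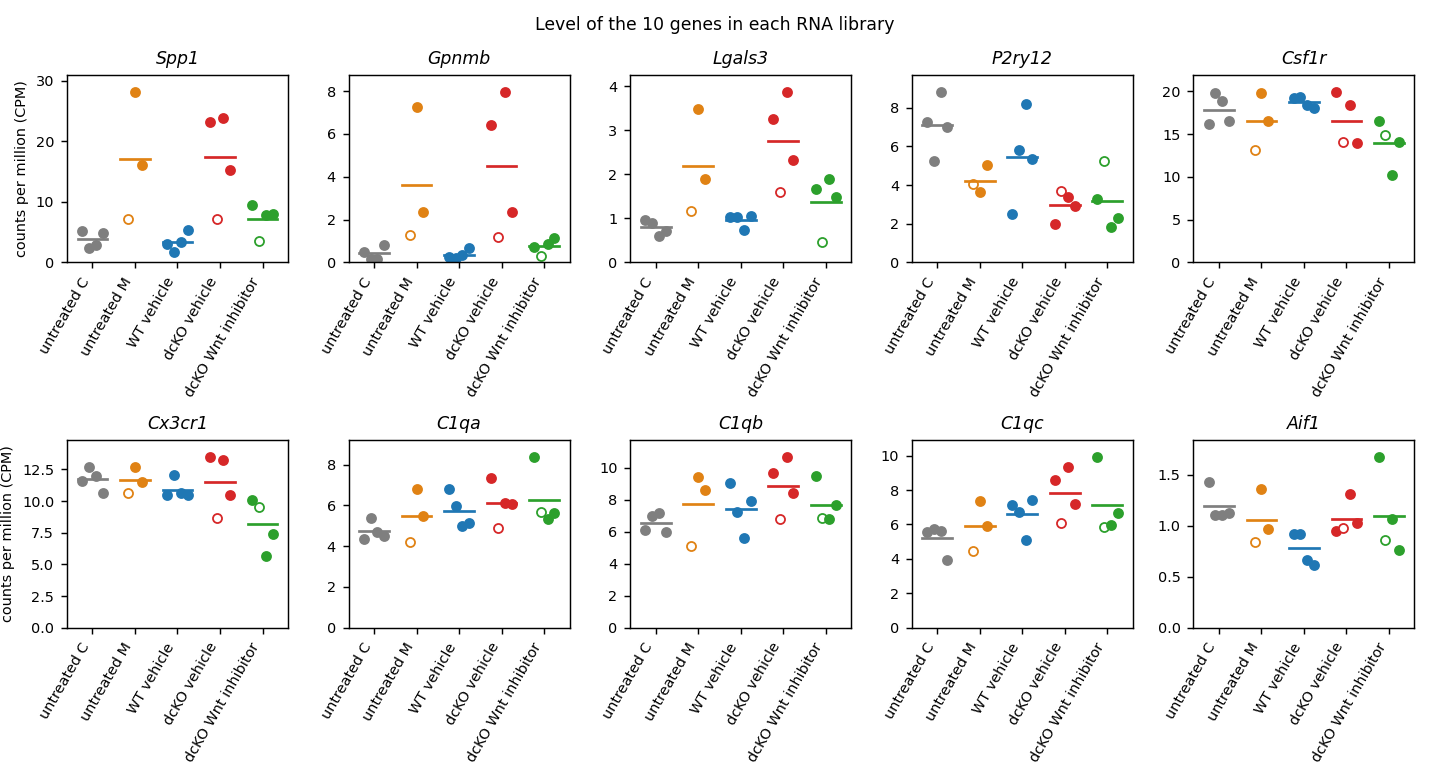
Level of each of the 10 genes in CPM (linear vertical axes from 0) in the 19 RNA libraries by group. Points are libraries, lines are group means, and open points are the replicate 2 libraries of M, dcKO vehicle and dcKO Wnt inhibitor with control-level Smarcc1. Spp1, Gpnmb and Lgals3 stood above their controls in every M and dcKO vehicle library, and the 7 homeostatic genes, in the other panels, mostly overlapped.

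The gene models lie at chr5:104435118-104441050 (Spp1), chr6:49036546-49070929 (Gpnmb) and chr14:47367751-47386160 (Lgals3) of GRCm38, and only that of Spp1 overlaps another gene, Gm42793. The bases just upstream of the RefSeq starts are shown because the 3 genes moved together and the starts of Gpnmb and Lgals3 lay in H3K27me3 regions. The sequences are the 250 bases before the RefSeq start on GRCm38.p6, on the gene's own strand, and capitals mark matches on either strand to GAGGAA, the core that PU.1 (Spi1) binds, or AACCACA, a RUNX-type site. The windows are chr5:104434861-104435110 for Spp1, chr6:49036268-49036517 for Gpnmb and chr14:47373610-47373859 for Lgals3, all on the plus strand.
Spp1: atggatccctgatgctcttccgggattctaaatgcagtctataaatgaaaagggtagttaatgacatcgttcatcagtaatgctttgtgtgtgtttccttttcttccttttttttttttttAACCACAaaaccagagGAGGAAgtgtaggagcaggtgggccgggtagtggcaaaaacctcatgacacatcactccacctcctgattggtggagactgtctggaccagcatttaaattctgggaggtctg
Gpnmb: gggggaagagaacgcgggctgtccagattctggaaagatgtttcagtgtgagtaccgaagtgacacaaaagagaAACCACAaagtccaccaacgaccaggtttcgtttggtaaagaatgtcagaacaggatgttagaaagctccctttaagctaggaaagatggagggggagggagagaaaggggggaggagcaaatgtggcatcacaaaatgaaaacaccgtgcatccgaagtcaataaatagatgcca
Lgals3: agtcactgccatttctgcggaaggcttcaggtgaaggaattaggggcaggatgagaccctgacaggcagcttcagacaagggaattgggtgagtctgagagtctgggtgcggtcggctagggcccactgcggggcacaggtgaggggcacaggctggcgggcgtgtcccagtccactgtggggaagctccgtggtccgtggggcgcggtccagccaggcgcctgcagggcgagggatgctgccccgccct
Spp1 and Gpnmb both held AACCACA, 129 and 176 bases before the start, and 4.4% of all 32851 promoter windows of this length held it. Spp1 also held GAGGAA 113 bases before the start, as did 23.3% of all windows, and the 2 matches did not overlap. The Lgals3 window held neither, and neither TGANTCA (an AP-1-type site, 6.75% of windows), CACGTG (an E-box, 6.02%) nor CATGTG (an M-box, 12.3%) was found in any of the 3. The Lgals3 window had 66.0% G and C and 13 CG pairs against a median of 52.4% and 6 over all windows, of which 31.5% held at least as many CG pairs. A match describes letters and not binding. RefSeq windows were at hand for 8 of the 10 genes, with none for C1qa and Csf1r. Spp1 has a second RefSeq start further downstream, whose window held none of the 5 motifs.

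The homeostatic genes did not follow. The sum of the 7 was 53.7 to 57.9 CPM in WT vehicle and 45.2 to 62.4 CPM in dcKO vehicle, and 49.7 to 58.3 CPM in C and 42.4 to 61.1 CPM in M, so that the ranges overlapped in both sets. The sum of the 3 phagocytic genes was 2.92 to 7.13 CPM in WT vehicle and 10.02 to 35.6 CPM in dcKO vehicle. Their ratio to the homeostatic sum of the same library was 0.0504 to 0.130 in WT vehicle, 0.222 to 0.571 in dcKO vehicle, 0.0591 to 0.129 in C and 0.226 to 0.638 in M. When those of replicate 2 were left out it was 0.398 to 0.571 in dcKO vehicle and 0.377 to 0.638 in M. In bulk RNA, fewer cells of a type and less RNA per cell cannot be told apart.

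Csf1r, the receptor for CSF1 and IL-34, was at 19.2, 19.3, 18.4 and 18.1 CPM in WT vehicle and at 19.98, 14.03, 18.4 and 13.99 CPM in dcKO vehicle, with a log2 fold change of -0.18 (SE 0.16). Cx3cr1 was at 10.5 to 12 CPM in WT vehicle and 8.68 to 13.5 CPM in dcKO vehicle, with a log2 fold change of 0.07 (SE 0.19). Both had wider spreads in the dcKO than in the controls. Without dcKO vehicle 2 the values were -0.10 (SE 0.17) for Csf1r and 0.18 (SE 0.18) for Cx3cr1, and for M against C they were -0.10 (SE 0.14) and -0.01 (SE 0.11) with all libraries and 0.03 (SE 0.12) and 0.05 (SE 0.11) without M 2. The complement chains C1qa, C1qb and C1qc, which form the C1q hexamer, had log2 fold changes of 0.09 (SE 0.18), 0.25 (SE 0.18) and 0.24 (SE 0.20), and overlapped between the groups, also without dcKO vehicle 2, where they were at 0.18 (SE 0.19), 0.35 (SE 0.18) and 0.34 (SE 0.20). Without M replicate 2 the 3 chains stood above C with no overlap (log2 fold changes of 0.37, 0.45 and 0.35), as did 18.9% of all genes. Aif1, the actin-binding protein IBA1 used to stain microglia, was at 0.620 to 0.921 CPM in WT vehicle and 0.947 to 1.31 CPM in dcKO vehicle, with a log2 fold change of 0.44 (SE 0.28), and of 0.48 (SE 0.31) without dcKO vehicle 2. M and C overlapped for Aif1, at 0.839 to 1.36 and 1.1 to 1.43 CPM, with log2 fold changes of -0.13 (SE 0.24) with all libraries and -0.03 (SE 0.26) without M 2.

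P2ry12 (chr3:59216272-59262871, minus strand, within Med12l), the ADP receptor of ramified microglia, had the largest log2 fold change in size of the 7 homeostatic genes in both comparisons. It was at 7.27, 5.23, 8.82 and 7.00 CPM in C 1 to 4 and at 4.03, 3.64 and 5.01 CPM in M 2 to 4, without overlap. It was at 2.51, 5.78, 8.19 and 5.35 CPM in WT vehicle and at 1.98, 3.70, 3.4 and 2.89 CPM in dcKO vehicle, where WT vehicle 1 fell inside the range of the dcKO. The log2 fold change was -0.74 (SE 0.20) and -0.85 (SE 0.36). Unlike the phagocytic genes, P2ry12 in the library labelled M 2 lay between the other M libraries, while dcKO vehicle 2 was the highest of its group. Without the replicate 2 libraries the values were -0.72 (SE 0.22) and -0.97 (SE 0.35).

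Over the whole list, the quasi-likelihood test of edgeR, adjusted by Benjamini and Hochberg, called 0 of the 10 genes (adjusted p below 0.05) in either comparison of dcKO with control, where it called 0.00634% of 15770 genes for M against C and 0.00611% of 16372 genes for dcKO vehicle against WT vehicle. At an unadjusted p under 0.01, 3 members were higher for M against C (2.66% of all genes) and 1 lower (2.8%), and 3 were higher for dcKO vehicle against WT vehicle (1.56%). At an unadjusted p under 0.05 it was 4 of 10 in each, beside 16% and 9.46% of all genes. DESeq2 called 4 members (3.52% of all genes) and 3 members (0.733%). Groups did not overlap for 3 members that were higher (6.96%) and 1 that was lower (6.21%) in M, and for 4 that were higher (3.08%) in dcKO vehicle. When the replicate 2 libraries were left out, edgeR called 4 members (12.4% of all genes) and 3 members (3.92%). These comparisons chose the list, so nothing is read from the counts.

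**Figure D2:**
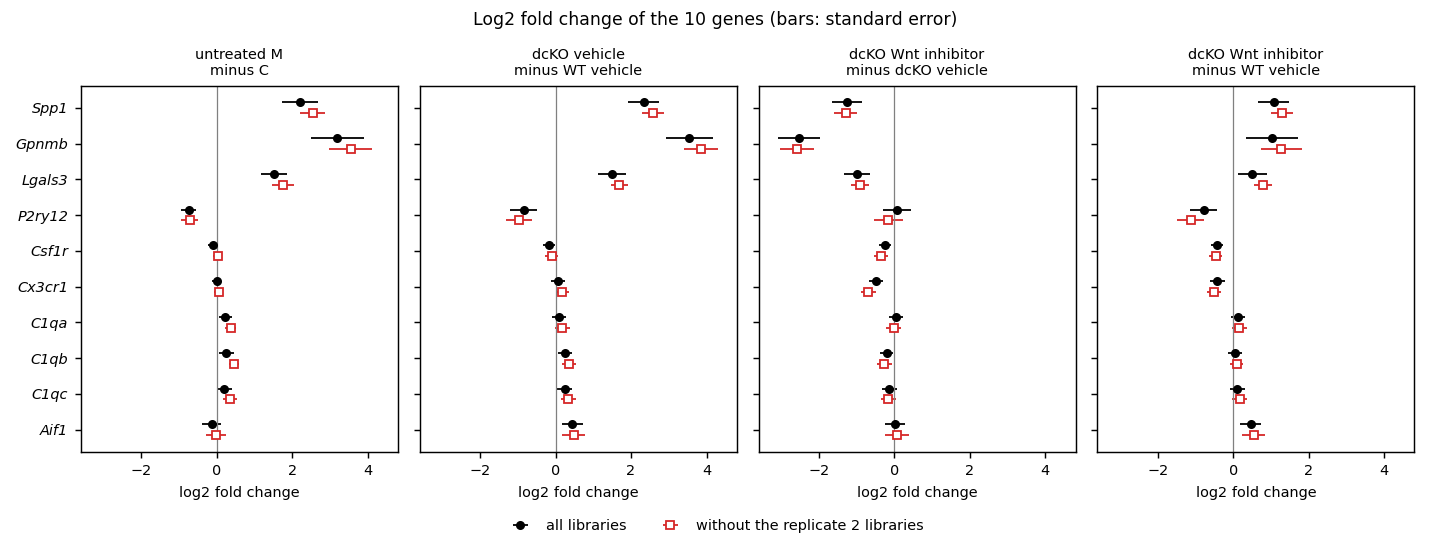
Log2 fold change (horizontal axis) with its standard error for the 10 genes in the 4 comparisons, from the fit of all libraries (filled circles) and from the fit without the replicate 2 libraries (open squares). Spp1, Gpnmb and Lgals3 lie right of 0 in both comparisons of dcKO with control and left of 0 for inhibitor against vehicle, where Gpnmb is at -2.52.

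The Wnt inhibitor blocks beta-catenin signalling with its CBP partner, and its libraries were compared with dcKO vehicle and with WT vehicle. No wild type group received it, so an effect of the agent itself cannot be told apart from a change of the dcKO pattern. Spp1 was at 9.57, 3.56, 7.77 and 8.05 CPM in dcKO Wnt inhibitor 1 to 4, and Gpnmb at 0.718, 0.287, 0.875 and 1.16 CPM. Gpnmb was below dcKO vehicle in all 4 inhibitor libraries (as were 4.03% of all genes), with the closest values at 1.16 and 1.20 CPM. Spp1 overlapped with dcKO vehicle through dcKO vehicle 2 at 7.21 CPM. The log2 fold change for inhibitor against dcKO vehicle was -1.26 (SE 0.39) for Spp1 and -2.52 (SE 0.55) for Gpnmb, and -1.30 (SE 0.31) and -2.58 (SE 0.45) without the replicate 2 libraries. Both were selected for a high level in the dcKO vehicle libraries that enter here, so no test is given.

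Lgals3 was at 1.67, 0.459, 1.90 and 1.47 CPM in the inhibitor libraries, and its log2 fold change against dcKO vehicle was -0.99 (SE 0.35). It did not pass the test with all libraries (edgeR, adjusted p = 0.227), and fell by 0.91 (SE 0.23) on the log2 scale without the replicate 2 libraries (edgeR, adjusted p = 0.0432). The level was lower in that fit in all 3 inhibitor libraries than in all 3 dcKO vehicle libraries, as it was for 18.9% of all genes. This comparison shares the dcKO vehicle libraries with the one behind the choice of genes. The fit without the replicate 2 libraries was chosen after the data were seen. In it Smarcc1 and Smarcc2 were also higher under the inhibitor, with log2 fold changes of 0.37 (SE 0.14) and 0.34 (SE 0.15). The part of this difference in the value of Lgals3 was not tested.

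Against WT vehicle, the inhibitor libraries kept log2 fold changes of 1.07 (SE 0.42) for Spp1 and 1.03 (SE 0.69) for Gpnmb, and Lgals3 was at 0.51 (SE 0.38, edgeR adjusted p = 0.475). With inhibitor replicate 2 left out together with dcKO vehicle 2, Lgals3 was at 0.78 (SE 0.24, edgeR adjusted p = 0.0612), and all 3 genes then stood above WT vehicle with no overlap, as did 9.49% of all genes. By mean level the order for Spp1 was dcKO vehicle (17.4 ± 7.82 CPM, SD, n = 4) and M (17.2 ± 10.6, n = 3), then inhibitor (7.24 ± 2.58, n = 4), then C (3.8 ± 1.46, n = 4) and WT vehicle (3.41 ± 1.54, n = 4). For Gpnmb the order was dcKO vehicle (4.49 ± 3.22), M (3.62 ± 3.20), inhibitor (0.759 ± 0.363), C (0.418 ± 0.305) and WT vehicle (0.362 ± 0.204), and for Lgals3 dcKO vehicle (2.76 ± 1.0), M (2.19 ± 1.18), inhibitor (1.38 ± 0.635), WT vehicle (0.959 ± 0.144) and C (0.795 ± 0.162). Neighbouring groups in each order overlapped, except inhibitor and M for Gpnmb, at 0.287 to 1.16 and 1.26 to 7.27 CPM, from tables normalised separately.

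The homeostatic genes moved less under the inhibitor. Cx3cr1 was at 10.1, 9.53, 5.69 and 7.37 CPM, with a log2 fold change of -0.49 (SE 0.19) against dcKO vehicle (edgeR, adjusted p = 0.249) and of -0.42 (SE 0.19) against WT vehicle (adjusted p = 0.238). Csf1r was at 16.6, 14.9, 10.3 and 14.1 CPM, with -0.25 (SE 0.16, adjusted p = 0.453) and -0.43 (SE 0.16, adjusted p = 0.177). Neither overlapped with WT vehicle, as was so for 4.02% of all genes on the lower side, and the third inhibitor library was the lowest for both. In the fit without the replicate 2 libraries Cx3cr1 was at -0.69 (SE 0.19, adjusted p = 0.0575) against dcKO vehicle, with no overlap, as was so for 18.9% of all genes, and at -0.51 (SE 0.18, adjusted p = 0.1003) against WT vehicle. Csf1r was then at -0.36 (SE 0.18, adjusted p = 0.229) and -0.46 (SE 0.17, adjusted p = 0.1002). P2ry12 was at 3.29, 5.22, 1.85 and 2.31 CPM, close to dcKO vehicle (0.07, SE 0.37, adjusted p = 0.949) and at -0.78 (SE 0.36, adjusted p = 0.25) against WT vehicle. Without the replicate 2 libraries the last value was -1.13 (SE 0.36, adjusted p = 0.0665). C1qa, C1qb, C1qc and Aif1 had log2 fold changes of -0.21 to 0.03 against dcKO vehicle and 0.04 to 0.46 against WT vehicle, with adjusted p from 0.386 to 0.988. These ranges were, without the replicate 2 libraries, -0.27 to 0.06 and 0.09 to 0.54, with adjusted p from 0.276 to 0.965.

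Spp1 and Gpnmb were left out of the counts of calls for the inhibitor, since they were chosen for their level in dcKO vehicle. Of the other 8 members, edgeR called 0 in the fit of all libraries (adjusted p below 0.05), against 0.055% of all genes for inhibitor against dcKO vehicle and 0.0977% for inhibitor against WT vehicle. For an unadjusted p below 0.05 it was 2 (Lgals3 and Cx3cr1) and 3 (P2ry12, Cx3cr1 and Csf1r) of the 8, beside 15.8% and 19.8% of all genes. DESeq2 called 0 of 8 in both, where it called 2.07% and 4.7% of all genes. Leaving out the replicate 2 libraries, edgeR called 1 of 8 against dcKO vehicle (Lgals3, beside 6.09% of all genes) and 0 against WT vehicle (10.2%, with 4 of 8 at an unadjusted p below 0.05).

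The level of Smarcc1 in the same library is set beside the members. The 5 M and dcKO vehicle libraries with 128 to 138 CPM of Smarcc1 had 15.2 to 28.2 CPM of Spp1 and 2.34 to 7.97 CPM of Gpnmb. The libraries labelled M 2 and dcKO vehicle 2 had 7.14 and 7.21 CPM of Spp1 and 1.26 and 1.20 CPM of Gpnmb, above every control. The third inhibitor library, with 140 CPM of Smarcc1, had 7.77 CPM of Spp1 and 0.875 CPM of Gpnmb, below all 5. The libraries fall into separate clusters by Smarcc1, so no correlation of these levels is given, and the part of an incomplete deletion in the inhibitor values was not tested.

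**Figure D3:**
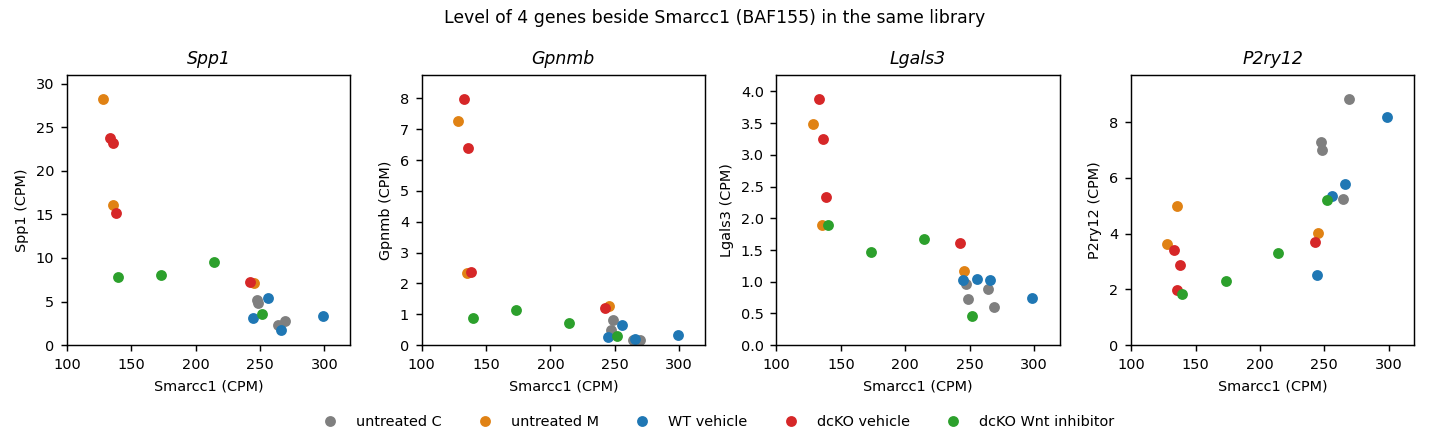
Level of Spp1, Gpnmb, Lgals3 and P2ry12 (vertical axes, CPM) beside that of Smarcc1 (horizontal axis, CPM) in each of the 19 libraries, coloured by group. High values of Spp1 and Gpnmb sit at 128 to 138 CPM of Smarcc1, and the inhibitor library at 140 CPM of Smarcc1 sits lower, at 7.77 CPM of Spp1.

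Within groups, Spp1, Gpnmb and Lgals3 varied more closely with each other than with the homeostatic genes. Deviations of log2 CPM from the group means over the 19 libraries correlated at 0.92 for Spp1 and Gpnmb and at 0.75 for each of them with Lgals3, as a description over libraries that may not all have separate sources. Among the 21 pairs of homeostatic genes r was -0.35 to 0.89, with a median of 0.63, and among the 21 pairs of a homeostatic with a phagocytic gene it was -0.56 to 0.67, with a median of 0.32. The closest homeostatic pair was C1qb with C1qc (0.89), neighbours on chromosome 4, followed by Csf1r with Cx3cr1 (0.88). P2ry12 varied apart from the rest, at -0.35 with C1qa and 0.23 with Cx3cr1. Libraries with high and low Smarcc1 share groups here, so these correlations are not separate from the dcKO rise behind the choice of Spp1 and Gpnmb.

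**Figure D4:**
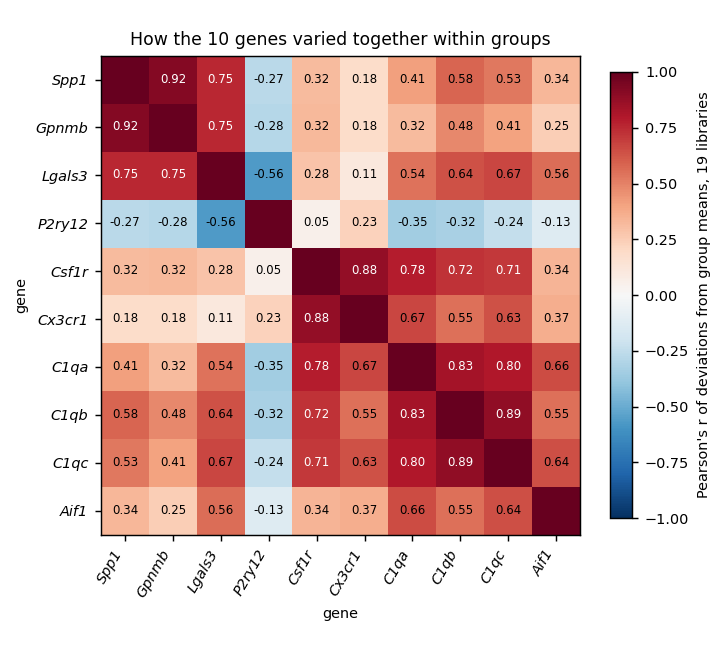
Pearson's r between each pair of the 10 genes (both axes) for deviations of log2 CPM from group means over 19 libraries, from -1 (blue) to 1 (red). Spp1, Gpnmb and Lgals3 form one block (0.75 to 0.92), the C1q genes, Csf1r and Cx3cr1 another (0.55 to 0.89), and P2ry12 has negative values with the phagocytic genes (-0.27 to -0.56).

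Among 15220 genes, the 5 whose deviations were most like the mean of the homeostatic genes included Fcrls (r = 0.83) and Trem2 (r = 0.82), both expressed by microglia, beside Gm1840 (0.85), Gm47283 (0.83) and G530011O06Rik (0.83). The gene most like Spp1 was Gpnmb (0.92), followed by Dynlrb2 (0.90), 9530077C05Rik (0.86), D630023F18Rik (0.85) and Gpr176 (0.83). After Spp1, the genes most like Gpnmb were Zcwpw1 (0.86), Stag3 (0.84), Galnt3 (0.84) and Creg1 (0.81). None of these followers of Spp1 and Gpnmb is a member of the microglial lists used here. Libraries of different Smarcc1 level stand in the same groups, and the part of that spread in these values was not tested.

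The wider microglial program was described with 28 other microglial genes, all of which passed the filter on low counts. Their summed level was 132 to 146 CPM in WT vehicle, 125 to 152 CPM in dcKO vehicle and 116 to 142 CPM in the inhibitor libraries. Of these sums Sall1 alone gave 42.4 to 48.1, 35.9 to 44.4 and 34.98 to 54.1 CPM in the same groups. Which cells carried Sall1 was not tested, so the sums are not read as a level of microglia. The median log2 fold change of the 28 genes was 0.10 for dcKO vehicle against WT vehicle and -0.22 for inhibitor against dcKO vehicle, beside 0.00 and 0.01 over all genes. edgeR called 0 of 28 in any of the 4 comparisons with all libraries (adjusted p below 0.05), 2 to 5 had an unadjusted p below 0.05 (beside 9.46% to 19.8% of all genes), and DESeq2 called 0 or 1 (beside 0.733% to 4.7%). Without the replicate 2 libraries 2 were called higher and 1 lower for dcKO vehicle against WT vehicle, beside 3.92% of all genes in both directions. C3ar1, the complement C3a receptor, rose (log2 fold change 1.39, SE 0.26, edgeR adjusted p = 0.0155), as did the adaptor Tyrobp (0.81, SE 0.20, adjusted p = 0.0458), and Siglech, a lectin of resting microglia, fell (-1.04, SE 0.23, adjusted p = 0.0276). Siglech was at 2.1 to 3.23 CPM in WT vehicle, 1.09 to 1.38 CPM in dcKO vehicle and 0.680 to 2.07 CPM under the inhibitor. C3ar1 fell under the inhibitor in the same fit (-1.06, SE 0.28, edgeR adjusted p = 0.0479), to 0.918 to 2.09 CPM from 2.36 to 4.27 CPM. Its rise in the dcKO rests on the same dcKO vehicle libraries, so the p-value of this fall is not a separate test. Trem2, the receptor upstream of Tyrobp, was at 2.01 to 2.61 CPM in WT vehicle and 2.0 to 3.14 CPM in dcKO vehicle.

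Of 24 phagocyte state genes, a list of lysosomal, lipid and surface genes of phagocytic microglia, 19 were tested in the treated libraries and 0 were called by edgeR with all libraries (9 at an unadjusted p under 0.05 for dcKO vehicle against WT vehicle, beside 9.46% of all genes, and 2 called by DESeq2, beside 0.733%). The median log2 fold change was -0.01. Without the replicate 2 libraries 3 of 20 were called, beside 3.92% of all genes. The macrophage lysozyme Lyz2 rose (1.92, SE 0.29, edgeR adjusted p = 0.00613) and so did the lysosomal protein Cd68 (0.65, SE 0.14, adjusted p = 0.0267), while the tetraspanin Cd9, which many other cells of the cortex also express, fell (-1.23, SE 0.16, adjusted p = 0.00458). Lyz2 was at 0.910 to 1.43 CPM in WT vehicle, and at 5.41, 1.83, 5.62 and 2.70 CPM in dcKO vehicle 1 to 4. Cd68 was at 4.63 to 5.88 CPM and at 8.66, 6.99, 8.45 and 6.99 CPM. Apoe, raised in many phagocytic states and also made by other cells, was at 36.7 to 100 CPM in WT vehicle and 52.4 to 85.0 CPM in dcKO vehicle. Under the inhibitor and without the replicate 2 libraries, Igf1 was lower than in dcKO vehicle (-0.90, SE 0.23, edgeR adjusted p = 0.0457). Cd9 was higher than in dcKO vehicle (0.92, SE 0.17, edgeR adjusted p = 0.0196). The fall of Cd9 in the dcKO rests on the same dcKO vehicle libraries, so the p-value of this rise is not a separate test.

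Of 18 ligands and receptors of the 10 proteins, 16 were tested in the treated libraries, with 0 called by edgeR for dcKO vehicle against WT vehicle (6 at an unadjusted p under 0.05, beside 9.46% of all genes, and 1 called by DESeq2, beside 0.733%). Without the replicate 2 libraries 3 of 16 rose, beside 3.92% of all genes called in either direction. They were Sdc4, a heparan sulfate proteoglycan (1.63, SE 0.21, edgeR adjusted p = 0.00458), the integrin subunit Itgb5, which with alpha v binds osteopontin (0.91, SE 0.16, adjusted p = 0.012), and the complement protease C1s1, at under 1 CPM in every library (2.47, SE 0.61, adjusted p = 0.0487). Cd44, a further receptor of osteopontin, was at 1.13 to 2.48 CPM in WT vehicle and 1.58 to 2.36 CPM in dcKO vehicle. Cx3cl1, the neuronal ligand of Cx3cr1, was at 35.1 to 69.8 and 32.6 to 58.9 CPM, and Il34, a ligand of Csf1r, at 1.65 to 2.71 and 1.02 to 2.09 CPM. Of 8 transcription factors of microglia and lysosomes 7 were tested, and edgeR called 0 for dcKO vehicle against WT vehicle (1 at an unadjusted p under 0.05, 0 by DESeq2, and 0 by edgeR without the replicate 2 libraries).

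Spp1, Gpnmb and Lgals3 are also expressed outside microglia, in border macrophages, osteoclasts, pigment cells and choroid plexus, and markers of those cells were read in the same libraries. The 10 border macrophage markers summed to 13.8 to 29.7 CPM in WT vehicle, 18.0 to 36.0 CPM in dcKO vehicle and 15.6 to 36.2 CPM under the inhibitor, with 4 tested and 0 of them called by edgeR or DESeq2 for dcKO vehicle against WT vehicle (0 with an unadjusted p below 0.05). The 8 monocyte and neutrophil markers summed to at most 1.28 CPM in any library and none passed the filter. The 11 osteoclast and bone markers summed to 14.3 to 23.3 CPM in WT vehicle and 15.5 to 21.8 CPM in dcKO vehicle, of which Mmp9 alone gave 11.3 to 20.5 and 13.1 to 17.54 CPM, and the osteoclast phosphatase Acp5 was at 0 to 0.153 CPM throughout. The 7 pigment cell markers summed to 9.92 to 14.1 and 5.10 to 12.6 CPM, and Mlana was at 0 in 16 of the 19 libraries. For dcKO vehicle against WT vehicle without the replicate 2 libraries, edgeR called 0 of 4 border macrophage and 0 of 4 osteoclast markers (1 and 0 at an unadjusted p below 0.05). Of 3 tested pigment cell markers, Dct then was called lower (-3.55, SE 0.47, edgeR adjusted p = 0.00458), and the sum of the pigment list, at 5.10 to 5.77 CPM, lay below all controls. Without dcKO vehicle 2 the border macrophage sum was 22.6 to 36.0 CPM. No list of these cells was higher as a sum in every dcKO vehicle library than in every WT vehicle library, with or without dcKO vehicle 2. Such sums do not show which cells carried Spp1, Gpnmb and Lgals3, and this was not tested.

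The sums of the other marker lists, with all libraries, overlapped between dcKO vehicle and WT vehicle, save for that of the spermatid list. The 10 choroid plexus markers summed to 18.7 to 151 CPM in WT vehicle, 17.9 to 25.2 CPM in dcKO vehicle and 25 to 878 CPM under the inhibitor, where 7 of 9 tested markers were higher than in dcKO vehicle at an unadjusted p under 0.01 (2.44% of all genes) while edgeR called 0 of them with all libraries and DESeq2 called 7. With the replicate 2 libraries left out, edgeR called 1 of the 9, Otx2 (1.17, SE 0.23, adjusted p = 0.0214). Ttr was at 803, 147, 448 and 4.03 CPM in inhibitor 1 to 4, while Spp1, which that tissue also expresses, was at 9.57, 3.56, 7.77 and 8.05 CPM in the same libraries. The 6 endothelial markers summed to 154 to 200 CPM in WT vehicle and 144 to 163 CPM in dcKO vehicle, with Flt1 at -0.49 (SE 0.11, edgeR adjusted p = 0.222), and at -0.53 (SE 0.12, adjusted p = 0.0298) without the replicate 2 libraries. The 8 meningeal fibroblast markers summed to 15.7 to 79.8, 18.0 to 29.4 and 22.0 to 70.9 CPM in those 3 groups, and the 6 erythroid markers to 144 to 255, 221 to 250 and 255 to 312 CPM. Of 6 spermatid markers only Prm1 passed the filter, and Prm2 was at 0 in every library. Prm1 was at 0.0775 to 0.331 CPM in WT vehicle and 28.9, 2.49, 28.1 and 30.8 CPM in dcKO vehicle 1 to 4. In inhibitor 1 to 4 it was at 2.87, 2.87, 12.1 and 8.21 CPM, and the source of Prm1 was not tested. The 10 cortical neuron and progenitor markers, which check the tissue, summed to 2289 to 3037, 1652 to 2831 and 2189 to 2400 CPM in WT vehicle, dcKO vehicle and inhibitor, and to 1652 to 2013 CPM in dcKO vehicle without replicate 2. The part of these marker differences in the levels of the 10 genes was not tested.

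Peaks of H3K27me3 were merged to regions present in at least 2 of 8 libraries and assigned to genes within 2000 bp. A region was assigned to 5 of the 10 genes (50%), beside 33.1% of 21911 protein-coding genes. Lgals3 had a region at chr14:47371934-47375515 on mm10, which covers its RefSeq start and the 250 bases printed above, with fold enrichments over input of 13.6, 4.42 and 3.8 in C 1, 2 and 4 and of 10.6, 4.77 and 8.62 in K 1, 3 and 4. C 3 and K 2 had no peak there. A single region, chr4:136889972-136897876, spanned C1qc and the downstream part of C1qa, with 3.8 to 4.88-fold enrichment in 3 C libraries and 3.84 to 5.59-fold in 3 K libraries. Only the peak of K 4 filled it, and the others lay over the downstream end of C1qa, save for a second peak in K 1. Gpnmb had 2 short regions near its start, chr6:49034518-49035750 and chr6:49036402-49037801, each with a peak in 1 C and 1 K library and at most 4.42-fold enrichment. The second covers the RefSeq start, through the peak of K 4.

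Cx3cr1 was assigned a region at chr9:119981459-119984890 with enrichment up to 13.1-fold in K 1, but it lies at RefSeq starts of Csrnp1, inside the long gene model of Cx3cr1 and not at its own start. A smaller one followed at chr9:119991442-119992894 in 3 libraries. Spp1 had a peak in 1 library, C 1, which covered its first start (chr5:104434814-104435552, 3.8-fold). C1qb had a peak in C 2, and Aif1 and Csf1r had peaks in K 4, the library with the most peaks (46000 against 6674 to 28659 in the other 7). P2ry12 had none.

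**Figure D5:**
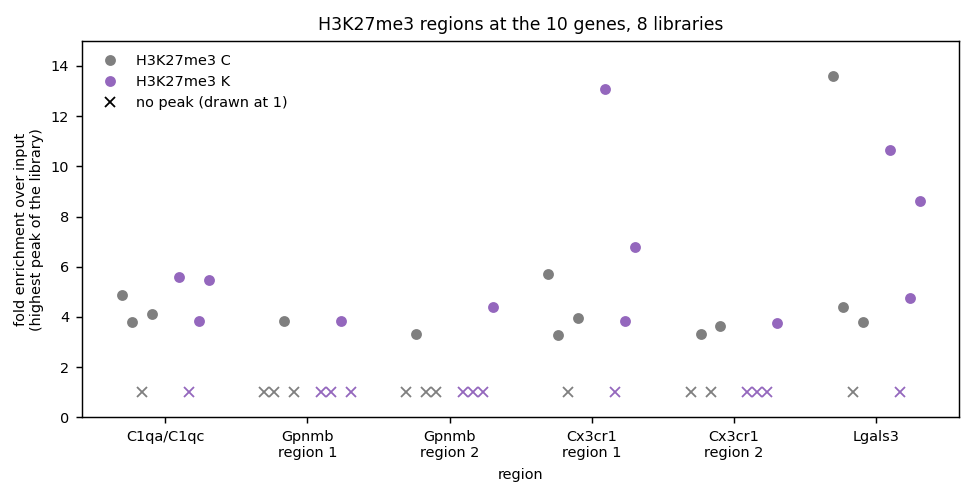
Fold enrichment over input (vertical axis, linear) of the highest peak of each of the 8 H3K27me3 libraries in the 6 regions assigned to the 10 genes (horizontal axis), for C (grey) and K (purple), with crosses at 1 for libraries without a peak. The Lgals3 region reaches 13.6 in C and 10.6 in K, and both groups hold libraries without a peak.

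The difference between K and C in log2 fold enrichment was -0.42 to 0.55 over these regions, with SE of 0.70 to 0.88, and was 0.23 (SE 0.78, limma adjusted p = 1.0) at Lgals3. limma called 0 of all 22220 regions with an adjusted p below 0.05 (0%), and 49 had an unadjusted p below 0.05 (0.221%), with 0 of the 6 regions among them. The share of tags kept after removal of repeats of a position ran from 12.3% to 66.5% between libraries, and a library without a peak was given a fold enrichment of 1, so differences of this size were not detectable here. The H3K27me3 signal is that of the whole tissue, in which microglia are a small part of the cells.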

How the data were processed

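RNA-seq of 19 libraries and H3K27me3 ChIP-seq of 8 libraries of E17.5 cortex were analysed. The authors mapped RNA reads to mm10 with STAR and deposited raw counts of reads per Ensembl gene from featureCounts. The kit does not mark strand and the annotation is not given in the sources used here. The authors called broad peaks per library with MACS2 2.1.0.20140616 at a q-value of 0.1 against pooled input, and deposited for each peak its pileup signal, fold enrichment and -log10 q-value. For this, gene counts went into edgeR 4.0.16 under R 4.3.3 (TMM, filterByExpr, robust quasi-likelihood test), separately for 7 untreated and 12 treated libraries, and Benjamini-Hochberg adjusted over all genes. CPM use TMM library sizes, and log2 CPM a prior count of 2. Positions are from GENCODE on GRCm38. DESeq2 1.42.0, limma 3.58.1, Python 3.11.15 and pandas 2.3.3 were also used. The fits were tested on simulated data, where 160 of 200 genes changed by 1 on the log2 scale were called for dcKO vehicle against WT vehicle over 15955 genes, with 8 false calls, and 171 of 200 with 12 false calls for M against C over 15538 genes. Only genes with a control mean above 1 CPM were changed there, a level that Gpnmb and Lgals3 did not reach. Genes were drawn independently of each other, unlike in libraries that differ over many genes at once, so these shares need not hold for the members.

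The members and lists were chosen with earlier results of these data known. Genes are named by a rule: the members, Smarcc1 and Smarcc2, up to 5 list genes per direction called at an adjusted p under 0.05, and the 5 genes most like each pattern. Genes named beside these, including those called only without the replicate 2 libraries, were chosen after their values were seen. Same-numbered samples of different groups were not treated as pairs, since their deviations did not correlate in every pair. Reads of overlapping genes (Hmgxb3 with Csf1r, Med12l with P2ry12, and 9 genes with Cx3cr1) cannot be told apart by strand. Input libraries and columns were not used here.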

Additional observations from a re-analysis of the deposited data

Results flagged for a closer look

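Within groups of 4 libraries, 8 values stood far from the other 3. The gap to the nearest was over the limit of Dixon's test, which chance passes in about 1 of 20 groups, and 60 groups were examined. C1qa was highest in dcKO Wnt inhibitor 1 (8.37 CPM), Cx3cr1 in WT vehicle 2 (12.03 CPM) and Aif1 in C 1 (1.43 CPM). C1qc was lowest in C 4 (3.93 CPM) and Lgals3 in WT vehicle 3 (0.744 CPM, 9 reads). Smarcc1 (242 CPM) and Smarcc2 (692 CPM) were highest in dcKO vehicle 2, the library labelled dcKO with a control level of both. In H3K27me3, C 3 had no peak in the region of C1qa and C1qc, a log2 fold enrichment of 0 where the other C libraries had peaks.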

How the results depend on the processing

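With all libraries, edgeR called 0 members in each of the 4 comparisons, and 1, 1, 9 and 16 of all genes for M against C, dcKO vehicle against WT vehicle, inhibitor against dcKO vehicle and inhibitor against WT vehicle. In the same order DESeq2 called 4, 3, 1 and 0 members and 555, 120, 339 and 770 genes. Of the other microglial genes it called 0, 1, 1 and 1, and of the phagocyte state genes 1, 2, 0 and 1. With no filter on low counts 1 member was called for M against C, and 154, 0, 20 and 58 genes. DESeq2 size factors in edgeR gave 0 genes for dcKO vehicle against WT vehicle, and a fit of only the 2 groups compared gave 0 there and 8 for inhibitor against WT vehicle.

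Same-numbered samples correlated at -0.18 to 0.40 in the treated, -0.31 to -0.03 in the untreated and -0.32 to 0.58 in the H3K27me3 libraries, so the numbers were not taken as pairs. With the replicate number as a block, 2 members and 5 genes were called for dcKO vehicle against WT vehicle, 1 member and 189 genes for inhibitor against WT vehicle, and 0 genes for M against C. The counts of members include Spp1 and Gpnmb, which were chosen for their rise in the dcKO, so nothing is read from them.

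Leaving out each library in turn gave 0 to 4 members, 0 to 1994 genes, 0 to 3 other microglial genes and 0 to 10 phagocyte state genes for M against C, with each highest value without M 2. For dcKO vehicle against WT vehicle it gave 0 to 3 members, 0 to 562 genes, 0 to 1 other microglial gene and 0 to 2 phagocyte state genes, the highest without dcKO vehicle 2. For inhibitor against dcKO vehicle it gave 0 to 1 member, 0 to 420 genes (180 without dcKO vehicle 2, 420 without inhibitor 2), 0 other microglial genes and 0 to 1 phagocyte state gene. For inhibitor against WT vehicle it gave 0 members, 0 to 1453 genes (1453 without inhibitor 2, 187 without WT vehicle 1), and 0 to 1 gene of either list. Without dcKO vehicle 2 and inhibitor 2 together, an alternative chosen after seeing the data, there were 3, 3 and 1 members, 649, 1007 and 1691 genes, 3, 1 and 1 other microglial genes and 3, 2 and 2 phagocyte state genes in the 3 treated comparisons. Lgals3 then passed the test for inhibitor against dcKO vehicle (-0.91, edgeR adjusted p = 0.0432).

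Of 306 log2 fold changes given without a test, over all alternatives, each moved by less than the spread between replicates, and 8 changed sign (for M against C Cx3cr1 under 4 alternatives and Csf1r under 1, and for dcKO vehicle against WT vehicle Cx3cr1 under 2 and C1qa under 1). Of 224 values of the 8 tested members in the inhibitor comparisons, 207 kept their direction and side of the threshold, 1 newly passed it and 16 changed sign. For inhibitor against dcKO vehicle the last were C1qa (-0.136 to 0.133 over the libraries left out, and -0.0200 without both replicate 2 libraries), P2ry12 (-0.280 to 0.258, and -0.164 without both) and Aif1 (-0.254 to 0.165, -0.00132 with no filter and -0.0110 with the block). Single libraries gave -0.0611 for C1qa without dcKO vehicle 2, -0.0858 for P2ry12 without dcKO vehicle 1, and -0.0381, -0.0265 and -0.00900 for Aif1 without dcKO vehicle 1, 2 and 4. For inhibitor against WT vehicle, leaving out inhibitor 1 gave -0.0460 for C1qa, -0.0769 for C1qb and -0.0995 for C1qc, and leaving out WT vehicle 3 gave -0.0696 for C1qb, where the highest values over the libraries left out were 0.214, 0.139 and 0.184. The causes were not tested.

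An H3K27me3 region was assigned to 5 members whichever library was left out, with the gene body only and with the block, and to 4 with peaks of q under 0.01 or present in at least 3 libraries. Gpnmb, Lgals3 and Aif1 had few reads in the controls, which limits the precision of their folds. The comparisons of the untreated and of the vehicle libraries may not rest on separate samples.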

Other observations

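Siglech, the lectin of resting microglia named above, followed P2ry12 and not the other homeostatic genes. It was at 1.94 to 2.63 CPM in C and at 1.26, 1.21 and 1.62 CPM in M 2 to 4, lower also in the library labelled M 2 with control-level Smarcc1. Tmem119, a further gene of resting microglia, was at 0.994 to 1.86 CPM in C, 0.795 to 1.01 CPM in M, 1.16 to 2.3 CPM in WT vehicle and 0.886 to 1.22 CPM in dcKO vehicle.

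The library dcKO vehicle 1, which has no untreated counterpart, carried both Xist (673 CPM) and the Y-linked Ddx3y (19.03 CPM), while each of the other libraries with one of these genes at a high level had the other near 0.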
